A study of Rattus norvegicus with 12 samples.

Results

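The cytochrome P450 genes of the rat kidney were followed through unilateral ischemia-reperfusion injury (IRI), in which blood flow to 1 kidney is cut off and later returns. Members were all genes whose symbol on the array begins with Cyp and a family number, without Cyp51. This gave 76 of the 26442 genes on the array, measured by 93 of its 30367 probes. RNA came from the left kidney of female rats of the inbred strain F344 aged 10 weeks. The 3 groups were rats given a sham operation and killed at day 7, rats with IRI of the left kidney killed at day 3 and rats with the same IRI killed at day 7, with 4 rats and 4 Agilent single-colour arrays in each. All rats were operated on and no other treatment is labelled. Sham kidneys were taken at day 7 alone, so time after the operation and injury cannot be told apart in the comparison of day 3 with sham.

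P450 enzymes are heme proteins that insert an oxygen atom into their substrate, most of them in the endoplasmic reticulum with electrons passed on by the reductase encoded by Por. In the kidney, and mostly in the proximal tubule, family 4 enzymes turn arachidonic acid into hydroxy acids that act on vessel tone and salt transport, and the epoxygenase Cyp2c23 makes epoxides of the same acid. The vitamin D hormone is made by Cyp27b1 and broken down by Cyp24a1, and members of families 1, 2 and 3 oxidise drugs, steroids and other small molecules.

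Values below are log2 processed signals minus the 75th percentile of the array, given for replicates 1 to 4 of a group in that order, and levels of different probes are not compared. A fold change is the difference of group means from a limma fit over all 12 arrays, with its standard error (SE), and a gene was called if its Benjamini-Hochberg adjusted p over all tested genes was below 0.05. Of the 76 members, 40 passed the filter on dim probes, which asks for a signal well above background throughout 1 or more of the groups, and were tested among 18510 genes. The unscaled 75th percentile was 2.17 times the sham value at day 3 and 1.53 times at day 7 (p = 0.0286 for both by an exact two-sided permutation test, the lower limit for groups of 4). Differences from sham are therefore relative to a percentile that itself rose, and those between the days to one that was lower at day 7 than at day 3. The 4457 probes that stood above background on no array had a median log2 difference of -0.78 at day 3, 0.04 at day 7 and 0.82 from day 3 to day 7 on this scale. The 75th percentile scaling put the median of all tested genes at -0.13 at day 3 and -0.07 at day 7, and scaling to the total signal put it at 0.15 and 0.17.

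In whole kidney RNA, fewer cells of a type and less RNA per cell cannot be told apart. At day 3, 26 of the 40 tested P450 genes were lower than in sham and 6 were higher. The largest measured losses were in Cyp2e1, Cyp2d2, the family 4 genes Cyp4a2, Cyp4a8 and Cyp4a1, and the epoxygenase Cyp2c23. The 6 that rose were Cyp3a9, Cyp1b1, Cyp7b1, Cyp24a1, Cyp20a1 and Cyp4v3. Of these, Cyp3a9, Cyp1b1 and Cyp7b1 passed the filter only through day 3, the group in which they were high. Likewise Cyp39a1, Cyp4a2 and Cyp3a73, which fell, passed it only through sham. With probes above background on all 12 arrays, 21 members were lower and 3 higher. Over all genes tested with limma, 33.1% were called lower and 24.2% higher, 57.3% in all, against 32 of 40 members. Lower by at least 2-fold were 20 members, against 19.9% of all genes, and higher by at least 2-fold were 5, against 12.7%. The median log2 fold change was -1.06 over the tested members and -0.13 over all genes. In 30 members the 4 arrays of day 3 and the 4 of sham did not overlap, against 51.7% of all genes. In the unscaled signal, 19 of the 26 were still below sham, all 6 that rose were above it, and Cyp11b3, Cyp26c1, Cyp2b15, Cyp2t1, Cyp3a73, Cyp4f18 and Cyp4f5 were above sham. With a normexp background correction of the mean spot signal the counts fell to 8 lower and 0 higher by limma, with 24 and 1 at an unadjusted p under 0.05. The same correction without spots below their local background gave 30 and 6.

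At day 7, 13 members remained called lower than sham and 1, Cyp7b1, higher. The 13 were Cyp39a1, Cyp2d2, Cyp4a8, Cyp4a1, Cyp2d1, Cyp2c23, Cyp2d4, Cyp2d5, Cyp4b1, Cyp4f40, Cyp4f1, Cyp4a3 and Cyp26c1, and all of them were below sham in the unscaled signal as well. Over all genes 10.6% were called lower and 8.21% higher, 18.8% in all, and lower by at least 2-fold were 11 members against 3.72% of all genes, and higher by as much 1 against 3.64%. The median was -0.61 over the tested members and -0.07 over all genes. In 19 members the arrays did not overlap with those of sham, against 21.7% of all genes. Without day 7 replicate 3 the count of lower members was 8. With normexp it was 0 by limma, and 3 members were lower at an unadjusted p under 0.05, but 15 were called lower without spots below their local background.

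From day 3 to day 7, 11 members rose and 4 fell, against 18% and 13.4% of all genes (31.4% in all). The 11 were Cyp4a2, Cyp2e1, Cyp2d2, Cyp4a8, Cyp2c23, Cyp4a1, Cyp21a1, Cyp4f6, Cyp2d4, Cyp4f40 and Cyp11b3, all of them lower than sham at day 3, and the 4 were Cyp3a9, Cyp1b1, Cyp24a1 and Cyp20a1, all of them higher than sham at day 3. Of these, 6 rose and 4 fell by at least 2-fold, against 7.51% and 5.2% of all genes. This comparison shares the day 3 arrays with the first, so a turn of direction is partly built in. The median was 0.57 over the tested members and 0.05 over all genes, and in 10 members the arrays of the days did not overlap, against 36.1% of all genes. With slide as a block the rises of Cyp2d4 (adjusted p = 0.058), Cyp4f40 (0.0658) and Cyp11b3 (0.058) were not called, and Cyp2b2 (0.61, adjusted p = 0.036) was called higher. Without the block the differences were 0.88 in Cyp2b2 and 0.57 in Cyp11b3. Probes above background on no array had a median of 0.82. The count of members that rose was 6 without day 3 replicate 2 or without day 3 replicate 4, and 7 without day 7 replicate 2. The calls of Cyp4a2, Cyp2d4, Cyp4f6, Cyp4f40 and Cyp11b3 were the ones lost without 1 or another array, while those of Cyp2e1, Cyp2d2, Cyp4a8, Cyp2c23, Cyp4a1 and Cyp21a1 held without each of the 12.

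**Figure D1:**
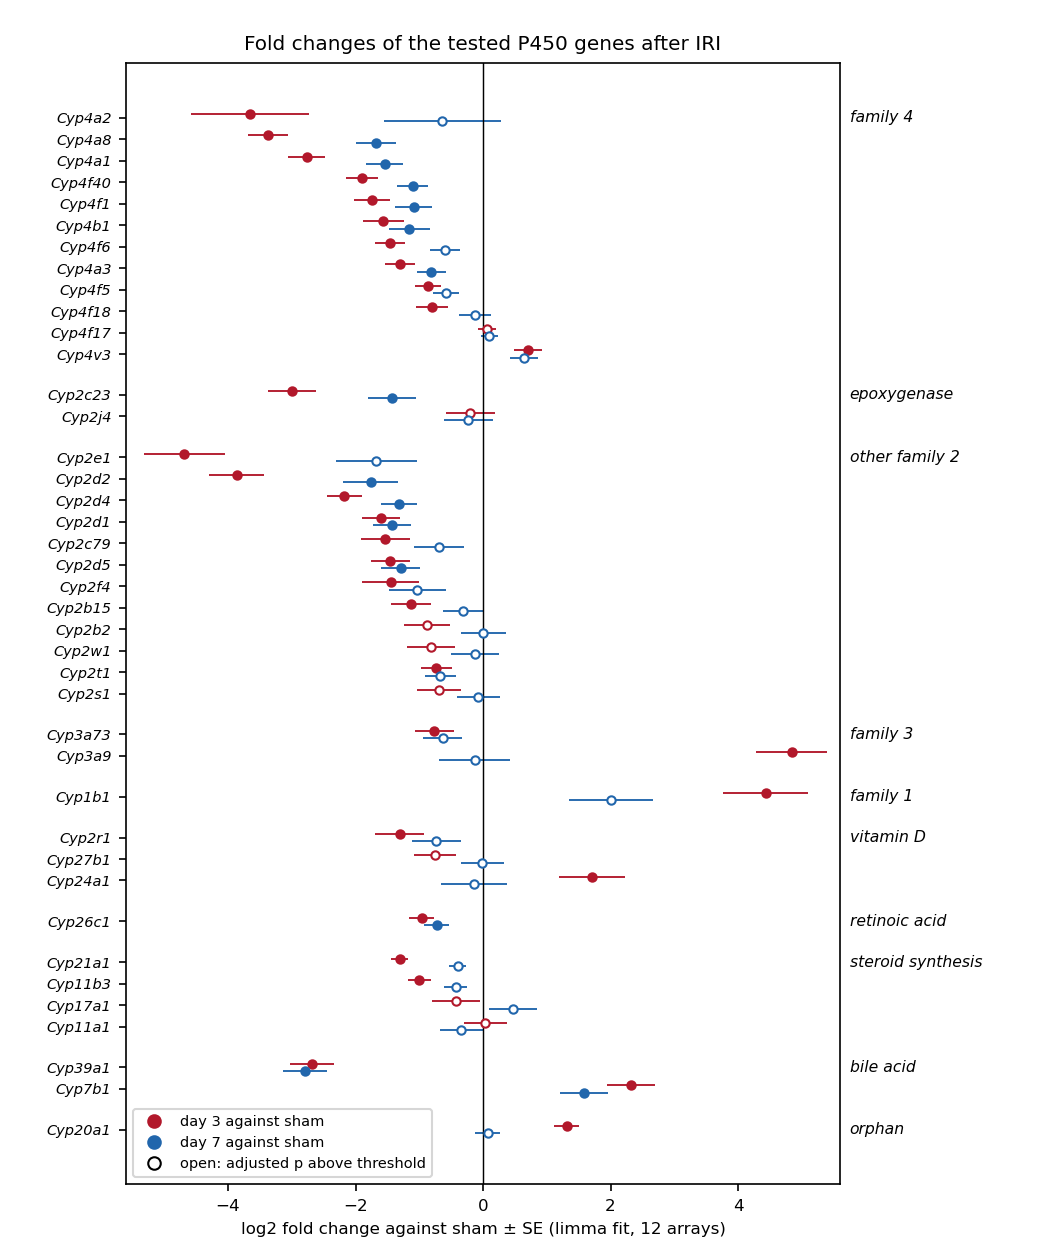
Log2 fold change against sham with its SE for the 40 tested P450 genes (rows, grouped by role) at day 3 (red) and day 7 (blue), from the limma fit over 12 arrays; filled points passed the adjusted p threshold. Most points lie left of 0, with 26 genes called lower and 6 higher at day 3 and 13 and 1 at day 7.

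Family 4 was the group with the most members called. Of 15 members 12 were tested, and 10 fell, 1 rose and 1 was not called at day 3, with a median log2 fold change of -1.51. At day 7, 6 were lower and 6 were not called, and the median was -0.72. From day 3 to day 7, 5 rose and 7 were not called. Cyp4a1, Cyp4a2, Cyp4a3 and Cyp4a8 are omega-hydroxylases of fatty acids and arachidonic acid, known as targets of the fatty acid receptor PPAR-alpha.

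Cyp4a1 (probe at chr5:135915634-135915693 of the build rn4) read 3.65, 3.74, 3.61 and 3.71 on the sham arrays, 0.85, 0.91, 1.77 and 0.11 at day 3 and 2.36, 2.26, 1.67 and 2.26 at day 7. All day 3 and day 7 arrays lay below all sham arrays, and sham replicates differed by little. Cyp4a1 fell 6.81-fold at day 3 (-2.77 ± 0.28 SE, limma adjusted p = 1.96e-05) and stood 2.91-fold below sham at day 7 (-1.54 ± 0.28, adjusted p = 0.00456). The rise between the days was 1.22 ± 0.28 (adjusted p = 0.00932), with 1 day 3 array above the lowest day 7 array.

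Cyp4a8 (chr5:135547750-135547809) read 5.17, 5.22, 4.72 and 4.89 in sham, 1.78, 1.58, 2.42 and 0.72 at day 3 and 2.84, 3.52, 3.70 and 3.22 at day 7. The 3 groups did not overlap at all. Cyp4a8 fell 10.4-fold at day 3 (-3.38 ± 0.31, adjusted p = 1.12e-05), was 3.21-fold below sham at day 7 (-1.68 ± 0.31, adjusted p = 0.00464) and rose 3.24-fold between the days (adjusted p = 0.00317). Its other tested probe (chr5:135546881-135546940) read 3.97, 3.68, 3.60 and 3.67 in sham, 2.63, 2.15, 1.82 and 2.24 at day 3 and 3.26, 3.05, 3.09 and 3.53 at day 7. That probe showed the same order of groups with smaller differences, -1.52 ± 0.18 at day 3 (adjusted p = 5.14e-05) and -0.50 ± 0.18 at day 7 (adjusted p = 0.0804, not called).

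Cyp4a3 (chr5:135876161-135876220) read 5.67, 5.64, 5.68 and 5.63 in sham, 4.23, 4.26, 5.10 and 3.84 at day 3 and 4.78, 4.68, 4.74 and 5.19 at day 7. Sham arrays lay within a narrow band above all arrays of IRI kidneys. Cyp4a3 fell 2.46-fold at day 3 (-1.30 ± 0.23, adjusted p = 0.000575) and stood 1.75-fold below sham at day 7 (-0.81 ± 0.23, adjusted p = 0.0309), a call that was lost with the authors' value table (0.0508), quantile normalization (0.117), total signal scaling (0.0897) and without any 1 of sham replicates 1, 2 and 3 or day 7 replicates 1, 2 and 3, and also with normexp (0.752) and without the filter on dim probes (0.0549).

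The probe named Cyp4a2 (chr5:135547423-135547482) lies between the probes of Cyp4a8 on rn4. It read -0.21, -0.82, -2.07 and -2.04 in sham, -4.16, -6.58, -2.48 and -6.53 at day 3 and -1.96, -2.27, -0.07 and -3.38 at day 7, and stood above background on 2 of 4 arrays at day 3 and 3 of 4 at day 7. The day 3 arrays spread widely, but all lay below sham. The probe was called lower at day 3, with a measured difference of -3.65 ± 0.92 (adjusted p = 0.00526; -4.47 without day 3 replicate 3) that rests on 2 arrays not well above background and was not called at day 7 (-0.64 ± 0.92, adjusted p = 0.674). Between the days the measured difference was 3.02 ± 0.92 (adjusted p = 0.0281), 3.84 without day 3 replicate 3 and 2.40 (adjusted p = 0.0637) without day 7 replicate 3. That call was lost too without day 3 replicates 2 (0.0828) or 4 (0.0861) and day 7 replicates 1 (0.0544) or 2 (0.0507).

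Another probe, described in the files as P450 4A2 but named there by a transcript accession and so outside the 76 members, lies at chr5:135884155-135884214, on the side of Cyp4a3. It read 4.97, 5.02, 4.91 and 4.78 in sham, 3.05, 2.80, 3.67 and 2.36 at day 3 and 3.16, 3.82, 3.61 and 3.59 at day 7. It differed from sham by -1.95 ± 0.24 at day 3 (adjusted p = 5.98e-05) and -1.38 ± 0.24 at day 7 (adjusted p = 0.00365). Since the transcripts of this subfamily are close relatives, which of them each probe reports is uncertain.

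The closeness of Cyp4a2 and Cyp4a3 shows in their promoters, here the 250 bases before the start site in RefSeq on the assembly GRCr8, at chr5:134170909-134171158 and chr5:134352237-134352486, both on the minus strand. In a global alignment 236 of 255 columns were identical (92.5%), the highest share among the 55 pairs of the 11 family 4 members with an entry. The next highest was 59.3%, between Cyp4a3 and Cyp4a8. Capitals mark AGGTCA, the half-site bound by many nuclear receptors, searched on both strands; it begins at position -105 from the start site in each.
Cyp4a2: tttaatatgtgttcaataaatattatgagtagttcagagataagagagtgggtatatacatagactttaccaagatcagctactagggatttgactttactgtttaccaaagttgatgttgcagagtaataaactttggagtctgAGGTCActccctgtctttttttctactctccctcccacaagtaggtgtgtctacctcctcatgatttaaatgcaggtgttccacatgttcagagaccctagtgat
Cyp4a3: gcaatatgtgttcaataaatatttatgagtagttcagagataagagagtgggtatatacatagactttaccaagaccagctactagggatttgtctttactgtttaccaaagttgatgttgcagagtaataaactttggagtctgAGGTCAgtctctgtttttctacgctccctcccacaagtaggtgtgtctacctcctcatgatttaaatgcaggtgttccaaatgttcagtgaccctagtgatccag
AGGTCA was found in 19 of the 59 P450 promoters with an entry and in 14.1% of all 33469 promoters of that length. Among the members tested it was found in 8 of 23 that fell at day 3 and in 0 of 3 that rose, where 0 of 3 says only that these letters are not in those windows.

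Cyp4f1, Cyp4f5, Cyp4f6, Cyp4f17, Cyp4f18 and Cyp4f40 belong to a subfamily that hydroxylates arachidonic acid and leukotrienes. Cyp4f1 (chr7:13589691-13589750) read 4.91, 5.08, 4.82 and 5.04 in sham, 3.09, 3.26, 3.83 and 2.70 at day 3 and 3.52, 3.85, 3.44 and 4.71 at day 7. Cyp4f40 read 2.10, 2.27, 2.21 and 1.89, then 0.38, 0.39, 0.40 and -0.30, then 0.66, 1.01, 0.64 and 1.73. Both had all arrays of IRI kidneys below sham, and day 7 replicate 4 stood nearest to sham in both. Cyp4f1 fell 3.34-fold at day 3 (-1.74 ± 0.29, adjusted p = 0.000347) and was 2.12-fold below sham at day 7 (adjusted p = 0.0227; 0.0648 and 0.0685 without day 7 replicate 1 or 3), and Cyp4f40 fell 3.74-fold (-1.90 ± 0.25, adjusted p = 7.8e-05) and was 2.15-fold below sham at day 7 (adjusted p = 0.0116).

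Cyp4f6 read 1.58, 1.60, 1.51 and 1.46 in sham, 0.62, -0.23, 0.26 and -0.37 at day 3 and 1.1, 1.38, 0.56 and 0.72 at day 7. Cyp4f5 read 0.08, -0.42, 0.08 and 0.20, then -0.69, -1.07, -0.57 and -1.16, then -0.69, -0.51, -0.96 and -0.25. Cyp4f18 read 1.13, 0.37, 1.09 and 0.89, then 0.28, 0.13, 0.06 and -0.21, then 1.20, 0.44, 0.21 and 1.14. In all 3 genes the day 3 arrays lay below sham, while at day 7 those of Cyp4f5 and Cyp4f18 overlapped with sham. The day 3 fold changes were -1.46 ± 0.23 (adjusted p = 0.000273), -0.86 ± 0.20 (adjusted p = 0.00378) and -0.81 ± 0.25 (adjusted p = 0.0159; 0.0913 with total signal scaling), and none of the 3 was called at day 7 (-0.60, -0.59 and -0.12).

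Cyp4f17 read -1.81, -1.92, -1.58 and -1.64 in sham, -1.64, -1.70, -1.69 and -1.67 at day 3 and -1.87, -1.40, -1.54 and -1.73 at day 7. It was not called in any comparison, with differences of 0.06 ± 0.14 and 0.10 ± 0.14 from sham, although its sign turned between alternatives (-0.45 to 0.34 at day 3). Cyp4b1, an enzyme known to activate several toxicants, read -0.37, -0.31, -1.07 and -0.12 in sham, -1.90, -2.04, -1.91 and -2.28 at day 3 and -1.24, -1.1, -1.45 and -2.71 at day 7. Its IRI arrays all lay below sham, and it fell 2.96-fold at day 3 (-1.56 ± 0.32, adjusted p = 0.00153) and stood 2.23-fold below sham at day 7 (adjusted p = 0.0284; 0.0536 to 0.0646 without any 1 of sham replicates 1, 2 and 4 or day 7 replicate 3, and 0.0752 with total signal scaling).

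Cyp4v3, related to a human enzyme of fatty acid metabolism in the eye, was the only tested family 4 member that rose. It read -0.77, -0.73, -1.60 and -0.41 in sham, -0.18, -0.33, -0.09 and -0.07 at day 3 and -0.46, -0.09, -0.20 and -0.21 at day 7. Sham was lower than day 3 on all arrays, with sham replicate 3 the lowest. The rise was 1.64-fold at day 3 (0.71 ± 0.22, adjusted p = 0.0152; 0.799 with normexp), and the day 7 difference of 0.64 ± 0.22 had an adjusted p of 0.0615. At day 7 it was called with slide as a block (0.0206), scan batch as a block (0.0358), total signal scaling (0.0177), the authors' value table (0.0464), probes above background on all 12 arrays (0.0471) and without sham replicate 4 (0.0268).

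**Figure D2:**
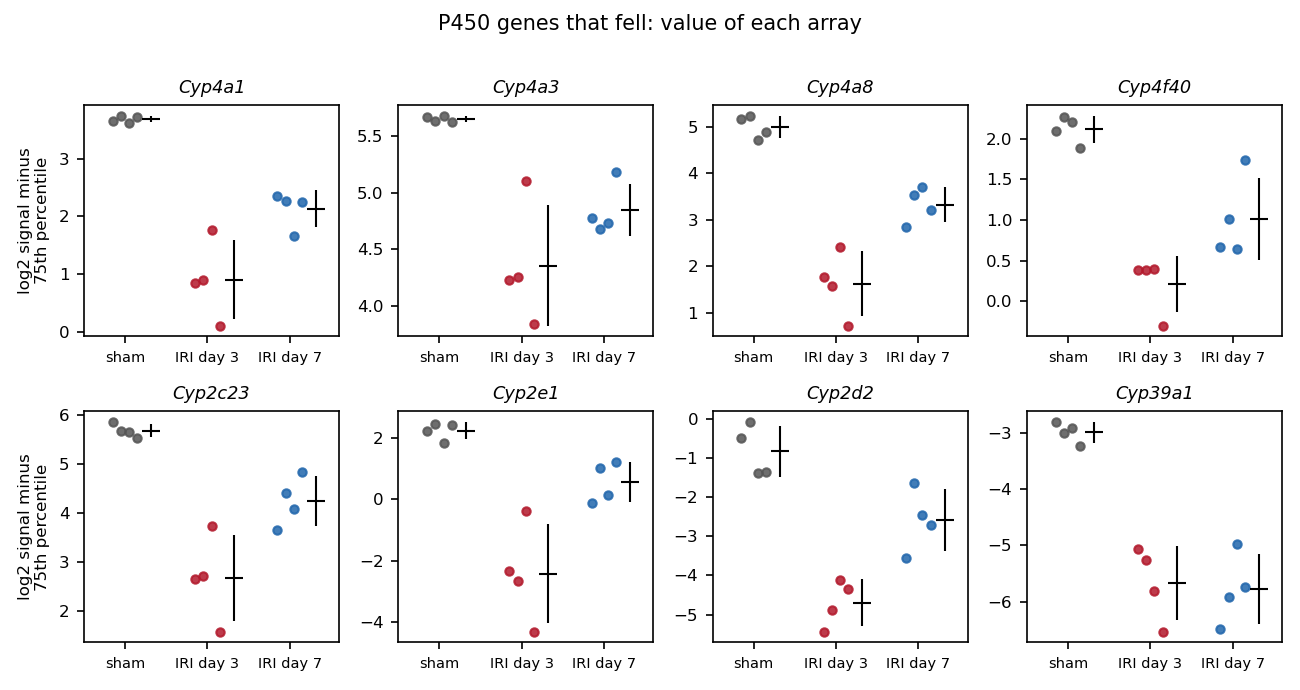
Each panel shows 1 P450 gene that fell, with the log2 signal minus the 75th percentile of the array on the vertical axis (each panel has its own range) for the 4 arrays of sham, IRI day 3 and IRI day 7; black marks are mean ± SD. Cyp4a8 shows 3 groups that do not overlap, Cyp2e1 and Cyp2c23 spread most at day 3, and Cyp39a1 stood above background on no array of either IRI group.

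The epoxygenase group had 6 members, of which 2 were tested. Cyp2c23 (chr1:249228597-249228656), the main arachidonic acid epoxygenase of the rat kidney, read 5.85, 5.67, 5.64 and 5.53 in sham, 2.67, 2.72, 3.74 and 1.58 at day 3 and 3.66, 4.40, 4.08 and 4.84 at day 7. All IRI arrays were below sham, and day 3 replicate 3 overlapped with day 7. Cyp2c23 fell 7.98-fold at day 3 (-3.00 ± 0.38, adjusted p = 6.2e-05) and rose 2.96-fold between the days (adjusted p = 0.0106). At day 7 it was 2.69-fold below sham (-1.43 ± 0.38, adjusted p = 0.0227), a call lost without sham replicate 1 (0.0559) or day 7 replicates 1 (0.0656) or 3 (0.06). Cyp2j4, an epoxygenase of another subfamily, read -1.66, -2.0, -2.91 and -0.98, then -1.80, -2.65, -2.06 and -1.85, then -1.45, -2.26, -2.03 and -2.73, and its groups overlapped (-0.20 ± 0.38 at day 3, adjusted p = 0.672). Cyp2c11, Cyp2j3, Cyp2j10 and Cyp2j16 did not pass the filter.

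Enzymes on either side of these products were read from a list of 16 genes of epoxide hydrolases and eicosanoid synthesis, of which 12 were tested. At day 3, 4 rose and 4 fell (median -0.13), against 24.2% and 33.1% of all genes. At day 7, 3 were higher and 1 was lower than sham (median 0.20), against 8.21% and 10.6%. Ephx2, the soluble hydrolase that opens arachidonic epoxides, fell by 1.65 ± 0.33 at day 3 (adjusted p = 0.00124) and differed by -0.56 ± 0.33 at day 7 (adjusted p = 0.257). Ephx1, the microsomal hydrolase, fell by 1.75 ± 0.22 at day 3 (adjusted p = 6.81e-05) and stood at -1.09 ± 0.22 at day 7 (adjusted p = 0.00749). Ephx4, with a probe above background on no day 3 array, was at least 3.10-fold lower then (measured -1.79 ± 0.45, adjusted p = 0.00495), the sham mean being set against, on each day 3 array, the higher of the probe's own value and the lowest value of any probe above background. Ptgis, the prostacyclin synthase, above background on no sham array, was by the same rule at least 1.21-fold higher at day 3 (measured 1.32 ± 0.41, adjusted p = 0.0169), and Hpgd, which breaks down prostaglandins, was at 0.28 ± 0.35 at day 3 and at 2.21 ± 0.35 at day 7 (adjusted p = 0.00212).

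Of the 26 other family 2 members 12 were tested, and 9 fell at day 3 and none was called higher (median -1.45). At day 7, 4 were lower than sham (median -0.86), and 3 rose between the days. The 4 at day 7 were the subfamily 2D genes Cyp2d1, Cyp2d2, Cyp2d4 and Cyp2d5, which lie together on chromosome 7 and encode drug-metabolising enzymes.

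Cyp2e1 (chr1:200927736-200927795), which oxidises ethanol, acetone and small solvents, read 2.25, 2.46, 1.84 and 2.45 in sham, -2.33, -2.67, -0.39 and -4.33 at day 3 and -0.10, 1.04, 0.15 and 1.21 at day 7. The groups did not overlap, but the day 3 arrays spanned a wide range. The difference from sham was -4.68 ± 0.63 at day 3 (adjusted p = 9.73e-05; -5.36 and -4.05 without replicate 3 or 4) and -1.68 ± 0.63 at day 7 (adjusted p = 0.0838; 0.023 and 0.0334 without day 3 replicate 3 or 4, which enter the spread of the fit). Between the days Cyp2e1 rose 8.04-fold (3.01 ± 0.63, adjusted p = 0.00583; 3.69 and 2.37 without day 3 replicate 3 or 4). Its promoter (GRCr8 chr1:205269717-205269966, plus strand) holds AGGTCA at position -200 and TATAAA, the TATA box, at -49 from the start site, both searched on either strand and in capitals.
Cyp2e1: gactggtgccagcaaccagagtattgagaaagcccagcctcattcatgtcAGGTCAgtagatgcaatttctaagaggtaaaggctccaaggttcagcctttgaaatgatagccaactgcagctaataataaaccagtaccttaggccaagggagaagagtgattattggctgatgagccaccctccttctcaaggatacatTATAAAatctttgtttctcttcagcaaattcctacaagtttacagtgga
TATAAA was found in 17 of 59 P450 promoters and in 12.9% of all promoters. Among the members tested it was found in 5 of 23 that fell at day 3 and in 0 of 3 that rose.

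Cyp2d2 (chr7:120798606-120798665) read -0.49, -0.08, -1.39 and -1.36 in sham, -5.44, -4.87, -4.11 and -4.34 at day 3 and -3.56, -1.63, -2.45 and -2.72 at day 7. The groups did not overlap, and the probe stood above background on 2 of 4 arrays at day 3. Cyp2d2 fell at day 3, by a measured -3.86 ± 0.43 (adjusted p = 3.17e-05), was 3.39-fold below sham at day 7 (-1.76 ± 0.43, adjusted p = 0.0165) and rose between the days, by a measured 2.10 ± 0.43 (adjusted p = 0.0052). The values that involve day 3 rest on 2 arrays not well above background.

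Cyp2d4 (chr7:120741633-120741692) read 0.20, -0.59, -0.40 and -1.18 in sham, -3.05, -2.89, -2.28 and -2.44 at day 3 and -1.82, -1.47, -2.07 and -1.88 at day 7. Again the groups did not overlap, with day 7 between sham and day 3. It fell 4.51-fold at day 3 (-2.17 ± 0.28, adjusted p = 6.62e-05) and was 2.49-fold below sham at day 7 (adjusted p = 0.00831). The rise between the days (0.85 ± 0.28, adjusted p = 0.0351) was lost with normexp (0.526), the median over probes (0.139), no filter (0.0525), slide as a block (0.058) and without any 1 of day 3 replicates 1, 2 and 4 and day 7 replicates 1, 2 and 4 (0.0558 to 0.095). It was 0.25 ± 0.37 (adjusted p = 0.625) in its other probe (chr7:120743218-120743277), which fell by 2.03 ± 0.37 at day 3 (adjusted p = 0.000661).

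Cyp2d1 (chr7:120769703-120769762) and Cyp2d5 (chr7:120760436-120760495) are reported by probes that cannot be taken as independent. Their probes share 56 of 58 aligned bases, the closest pair among the members, and the stretches of 30 bases that hold both differences are shown with those bases in capitals, T28G and T29A counted from the 5′ end of the stretch and from Cyp2d1 to Cyp2d5.
Cyp2d1: ctgagccacgtttaataaaccagtcttTTg
Cyp2d5: ctgagccacgtttaataaaccagtcttGAg
Cyp2d1 read -0.68, -1.04 and -1.29 on sham replicates 1 to 3, -2.34, -2.88, -2.17 and -3.03 at day 3 and -1.90, -2.95, -2.20 and -2.70 at day 7, and the spot of sham replicate 4 was an outlier and was left out of its fit. Cyp2d5 read -0.64, -0.86, -1.42 and -1.78, then -2.33, -2.96, -2.10 and -3.13, then -1.94, -2.91, -2.42 and -2.59. On every array with both values they differed by less than the groups did, and all IRI arrays were below sham. The fold changes were -1.60 ± 0.29 (adjusted p = 0.000934) and -1.45 ± 0.31 (adjusted p = 0.00186) at day 3, and -1.43 ± 0.29 (adjusted p = 0.00888) and -1.29 ± 0.31 (adjusted p = 0.0147) at day 7. In the authors' value table, which keeps the outlier spot, Cyp2d1 was at -3.77 (adjusted p = 0.0669) and -3.63 (adjusted p = 0.142).

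Cyp2f4, named for an enzyme that activates toxicants in the lung, read -0.71, -0.51, -1.07 and -0.06 in sham, -1.76, -1.48, -2.0 and -2.91 at day 3 and -2.21, -2.07, -2.02 and -0.18 at day 7. Day 3 lay below sham on all arrays, and at day 7 replicate 4 alone lay within the sham range. It fell by 1.45 ± 0.44 at day 3 (adjusted p = 0.015), and the day 7 difference of -1.03 ± 0.44 (adjusted p = 0.124) was -1.51 (adjusted p = 0.0113) without that array. Cyp2c79 read -2.14, -3.68, -2.83 and -2.77, then -4.58, -4.37, -3.78 and -4.81, then -3.20, -3.22, -4.63 and -3.13, and fell by 1.53 ± 0.39 at day 3 (adjusted p = 0.00542). Cyp2b15 (-1.13 ± 0.32, adjusted p = 0.00954) and Cyp2t1 (-0.73 ± 0.24, adjusted p = 0.0216) also fell at day 3, the latter not with total signal scaling (adjusted p = 0.123), normexp (0.151) or without any 1 of day 3 replicates 1, 2 and 4 and sham replicate 2 (0.0541 to 0.0624). Cyp2b2 (-0.88), Cyp2w1 (-0.82) and Cyp2s1 (-0.69) were not called (adjusted p = 0.0502, 0.078 and 0.103). With slide as a block Cyp2b2 (-0.80, adjusted p = 0.00446) and Cyp2w1 (-0.70, adjusted p = 0.0205) were called lower, each slide holding all 3 groups. Cyp2b2 was also called with normexp without spots below local background (0.00546), with probes above background on all 12 arrays (0.0412) and without sham replicate 2, day 3 replicate 2 or day 7 replicates 1 or 2 (0.0265 to 0.0483). Cyp2w1 was also called with that form of normexp (0.00628) and without sham replicate 2 (0.0341). Cyp2s1 was called with the median over its probes (0.00948) and without sham replicate 4 (0.0103). At day 3 the unscaled signals of Cyp2b2, Cyp2w1 and Cyp2s1 were 1.21, 1.26 and 1.38 times sham. Probes above background on no array had a median difference of -0.78 then. All 3 probes of Cyp2s1 were lower at day 3. The 2 others were called (-1.47 ± 0.31, adjusted p = 0.00185, and -0.76 ± 0.27, adjusted p = 0.0325), the latter with a difference close to that of the uncalled probe (-0.69).

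**Figure D3:**
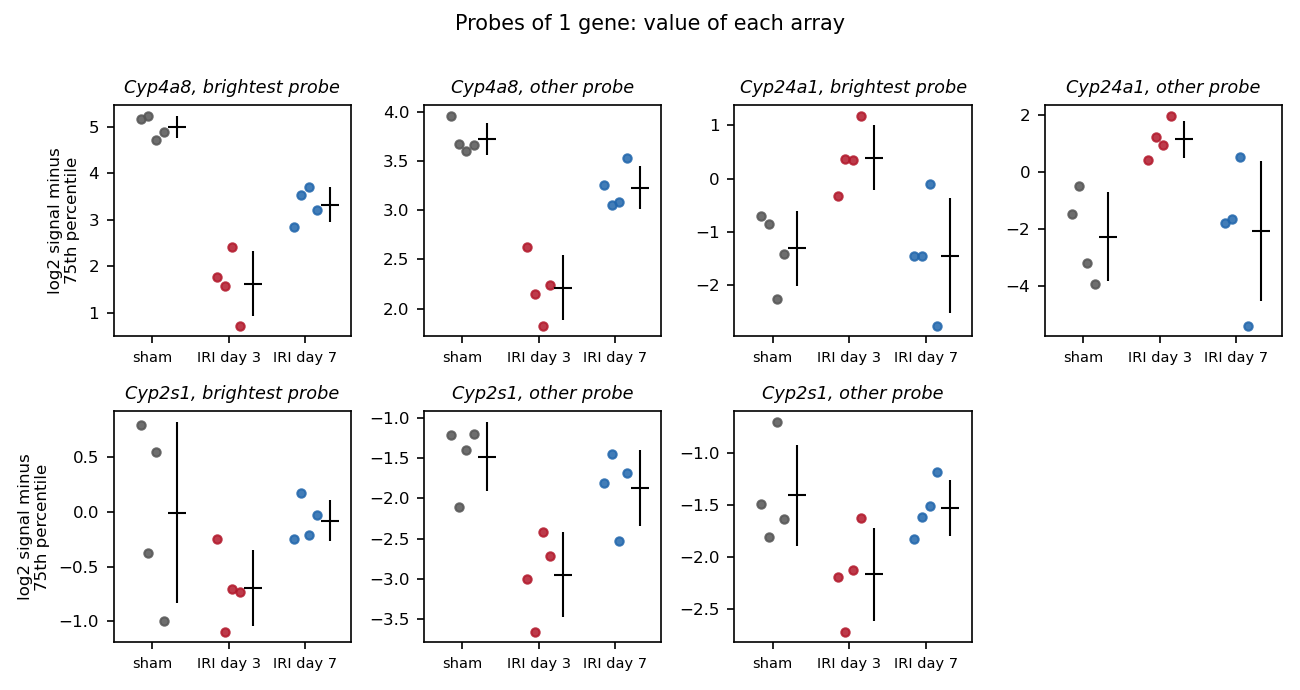
Values of each array (log2 signal minus the 75th percentile, each panel with its own range; black marks are mean ± SD) for the probes of 3 genes with several tested probes. Both Cyp4a8 probes are lowest and both Cyp24a1 probes highest at day 3, with different sizes. For Cyp2s1 sham and day 3 overlap in the brightest probe and in another.

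Of the 3 tested vitamin D enzymes, 1 rose, 1 fell and 1 was not called at day 3. Cyp24a1 (chr3:161542181-161542240), the mitochondrial 24-hydroxylase that inactivates the hormone, read -0.70, -0.86, -2.26 and -1.41 in sham, -0.33, 0.37, 0.35 and 1.18 at day 3 and -1.45, -1.45, -0.11 and -2.77 at day 7. Day 3 lay above all sham arrays, and day 7 spread over more than the sham range. It rose 3.26-fold at day 3 (1.70 ± 0.52, adjusted p = 0.0144; 0.0795 with normexp), was at -0.14 ± 0.52 at day 7 (adjusted p = 0.884) and fell 3.58-fold between the days (adjusted p = 0.0204; 0.0639 without day 3 replicate 4 and 0.0548 without day 7 replicate 4). Its other probe (chr3:161540181-161540240) read -1.49, -0.48, -3.20 and -3.92, then 0.42, 1.21, 0.95 and 1.97, then -1.79, -1.66, 0.52 and -5.39, and rose by 3.41 ± 1.06 at day 3 (adjusted p = 0.0164).

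Cyp2r1 (chr1:172593244-172593303), a 25-hydroxylase of vitamin D, read -2.26, -2.51, -2.36 and -2.13 in sham, -3.04, -3.81, -2.79 and -4.86 at day 3 and -3.55, -2.83, -3.26 and -2.56 at day 7. All IRI arrays were below sham. It fell by 1.31 ± 0.38 at day 3 (adjusted p = 0.0117) and was not called at day 7 (-0.74 ± 0.38, adjusted p = 0.2). Cyp27b1, the 1-alpha-hydroxylase that makes the active hormone, read -3.50, -4.04, -2.53 and -2.69, then -4.06, -3.79, -3.66 and -4.26, then -2.71, -3.48, -3.72 and -2.89, near background, and was not called (-0.75 ± 0.33 at day 3, adjusted p = 0.0721). It was called lower at day 3 with slide as a block (-0.62, adjusted p = 0.049), with normexp without spots below local background (0.00254) and without sham replicate 2 (0.0126). Cyp27a1 was not tested.

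Among 13 tested genes of a list of vitamin D partners, 8 fell and none rose at day 3 (median -0.92), against 33.1% and 24.2% of all genes. At day 7, 2 were higher and 2 lower than sham, against 8.21% and 10.6%. Vdr, the receptor whose binding is known to switch on Cyp24a1, fell by 2.21 ± 0.20 at day 3 (adjusted p = 1.07e-05) and was at -0.14 ± 0.20 at day 7 (adjusted p = 0.681). Calb1, the calcium buffer of the distal tubule, fell by 5.28 ± 0.35 and stood at 1.58 ± 0.35 above sham at day 7 (adjusted p = 2.34e-06 and 0.0104). S100g (-3.51 ± 0.47) and Kl (-2.17 ± 0.20), the co-receptor of the phosphate hormone FGF23, also fell at day 3 (adjusted p = 8.64e-05 and 1.14e-05).

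Of the 3 family 1 members, which the aryl hydrocarbon receptor is known to induce, Cyp1b1 alone was tested. Cyp1b1 (chr6:2548567-2548626) read -6.39, -6.23, -5.26 and -4.16 in sham, -0.97, -1.37, -1.12 and -0.86 at day 3 and -2.65, -3.45, -2.26 and -5.66 at day 7, and was well above background on 0, 4 and 3 arrays of the groups. Day 3 arrays lay close together and far above sham. As sham was not well above background, its mean was bounded as described for Ephx4, which gives a rise of at least 7.34-fold at day 3 (measured means -5.51 and -1.08, adjusted p = 0.000182). At day 7 it was at least 1.36-fold above sham by the same rule and was not called (adjusted p = 0.054; 0.00474 without day 7 replicate 4, the lowest, 0.0269 without sham replicate 4, 0.0348 with total signal scaling and 0.0492 with the value table), and it fell 5.38-fold between the days (-2.43 ± 0.66, adjusted p = 0.0181; -1.71 without day 7 replicate 4). With normexp the day 3 value was 0.49 (adjusted p = 0.454).

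The Cyp1b1 promoter (GRCr8 chr6:21094315-21094564, plus strand) is shown with GCGTG, the core of the site bound by the aryl hydrocarbon receptor, in capitals on either strand at positions -81 and -20 from the start site.
Cyp1b1: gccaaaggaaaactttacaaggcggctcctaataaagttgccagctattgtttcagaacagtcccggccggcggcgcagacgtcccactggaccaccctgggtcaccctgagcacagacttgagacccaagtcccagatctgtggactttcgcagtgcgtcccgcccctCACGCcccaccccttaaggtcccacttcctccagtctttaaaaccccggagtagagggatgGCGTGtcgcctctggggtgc
GCGTG was found in 16 of 59 P450 promoters and in 25.9% of all promoters. Among the members tested it was found in 2 of 3 that rose at day 3, Cyp1b1 and Cyp20a1, and in 6 of 23 that fell. Cyp1a1 was well above background on 2 sham arrays and on none of the IRI arrays, and Cyp1a2 on none. Ahr, the receptor, was at -0.28 ± 0.16 at day 3 (adjusted p = 0.158) and -0.49 ± 0.16 at day 7 (adjusted p = 0.0536), and Ahrr, its repressor and itself a target, rose by 1.76 ± 0.56 at day 3 (adjusted p = 0.0185) from a probe above background on 1 sham array.

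Of the 7 family 3 members 2 were tested. Cyp3a9 (chr12:17204458-17204517), an enzyme of steroid and drug oxidation, read -5.09, -6.40, -5.53 and -6.52 in sham, -1.39, -1.29, -2.24 and 0.76 at day 3 and -6.54, -6.34, -5.39 and -5.79 at day 7. It stood well above background on all 4 day 3 arrays and on no other array, with day 3 replicate 4 the highest. By the same rule it rose at least 7.59-fold at day 3 (measured means -5.88 and -1.04, adjusted p = 3.65e-05) and fell at least 7.1-fold between the days (measured means -1.04 and -6.01, adjusted p = 0.000309). The fitted difference was 4.84, 4.24 without day 3 replicate 4 and 0.86 with normexp (adjusted p = 0.304).

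The Cyp3a9 promoter (GRCr8 chr12:21960161-21960410, minus strand) holds TGACTCA, the site of AP-1 factors, at position -107 from the start site and, on the other strand, at -21, both in capitals.
Cyp3a9: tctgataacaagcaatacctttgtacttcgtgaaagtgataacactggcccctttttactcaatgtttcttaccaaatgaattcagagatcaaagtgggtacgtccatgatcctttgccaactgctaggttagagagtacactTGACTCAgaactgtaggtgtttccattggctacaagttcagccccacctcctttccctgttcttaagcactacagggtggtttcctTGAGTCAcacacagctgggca
TGACTCA was found in 3 of 59 P450 promoters and in 4.05% of all promoters. Among the members tested it was found in 1 of 3 that rose at day 3, Cyp3a9, and in 1 of 23 that fell, Cyp3a73 (at -84). Whether these sites act here was not tested. Cyp3a73 read between -3.60 and -2.16 in sham and between -4.34 and -3.34 at day 3, and its call of -0.76 ± 0.31 (adjusted p = 0.0487) was lost without any 1 of sham replicates 1, 2 and 3, day 3 replicates 1, 2 and 3 and each day 7 replicate, and under 6 other alternatives.

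**Figure D4:**
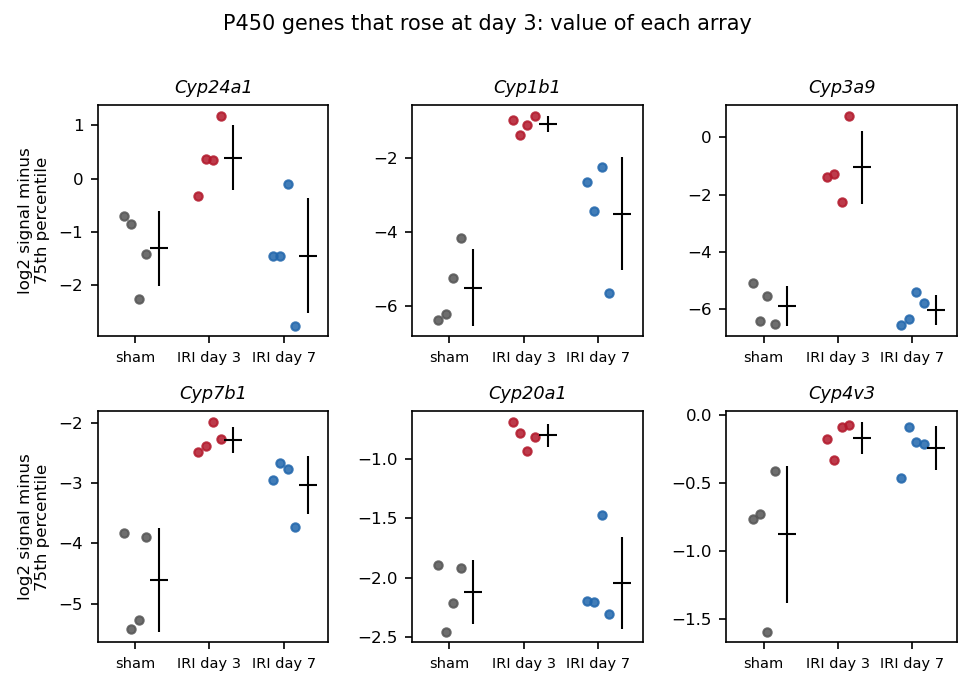
Each panel shows 1 of the 6 P450 genes that rose at day 3, with the log2 signal minus the 75th percentile of the array for 4 arrays per group (each panel with its own range; black marks are mean ± SD). Cyp3a9 is high at day 3 alone, Cyp20a1 and Cyp24a1 are back near sham at day 7, and Cyp7b1 remains above all sham arrays.

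Cyp26 enzymes clear retinoic acid, and 1 of 3 was tested. Cyp26c1 (chr1:241954541-241954600) read -1.03, -0.93, -0.80 and -0.64 in sham, -1.95, -1.94, -2.08 and -1.29 at day 3 and -1.60, -1.29, -1.83 and -1.59 at day 7, with all IRI arrays below sham. It fell by 0.96 ± 0.19 at day 3 (adjusted p = 0.00116), though its unscaled signal was 1.14 times sham, and was at -0.73 ± 0.19 at day 7 (adjusted p = 0.0219; 0.0819 with total signal scaling, 0.0527 and 0.0663 without day 7 replicate 1 or 3). Among 12 tested genes of retinoic acid supply and action, 6 rose and 3 fell at day 3, against 24.2% and 33.1% of all genes. At day 7, 2 were higher and 2 lower, against 8.21% and 10.6%. The vitamin A carrier Rbp4 was at least 63.1-fold lower at day 3 (measured -7.10 ± 0.62, adjusted p = 9e-06), with a probe above background on no day 3 array, whereas Aldh1a2, a retinoic acid synthase, rose by 2.35 ± 0.44 (adjusted p = 0.000793), Rdh10 by 2.28 ± 0.50 (adjusted p = 0.00212) and Crabp2 by 1.80 ± 0.42 (adjusted p = 0.00315).

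In bile acid and cholesterol metabolism 2 of 5 members were tested, and they moved apart. Cyp39a1 (chr9:12950276-12950335), an oxysterol 7-alpha-hydroxylase, read -2.80, -3.00, -2.91 and -3.24 in sham, -5.06, -5.26, -5.81 and -6.54 at day 3 and -6.49, -5.91, -4.98 and -5.74 at day 7. It stood above background on all sham arrays and on no IRI array, and so fell at least 3.24-fold at day 3 (measured means -2.99 and -5.67, adjusted p = 7.07e-05) and was at least 1.84-fold lower at day 7 (measured mean -5.78, adjusted p = 0.000672). Both calls were lost with normexp, at -1.41 (adjusted p = 0.115) and -0.68 (adjusted p = 0.752). Cyp7b1 (chr2:103103702-103103761), the other oxysterol 7-alpha-hydroxylase, read -3.84, -5.42, -5.27 and -3.89 in sham, -2.49, -2.39, -1.99 and -2.26 at day 3 and -2.95, -2.67, -2.76 and -3.73 at day 7. Both IRI groups lay above sham, which was above background on 2 arrays. Cyp7b1 rose at day 3, by a measured 2.32 ± 0.37 (adjusted p = 0.000286), and was above sham at day 7 (1.58 ± 0.37, adjusted p = 0.0137), while with normexp the values were -0.22 and -0.21 and not called. Cyp7a1, Cyp8b1 and Cyp46a1 were not tested.

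In the steroid hormone group 4 of 6 were tested. Cyp21a1, the adrenal 21-hydroxylase, fell from -1.22 ± 0.15 in sham to -2.53 ± 0.13 at day 3 (SD, n = 4 each; -1.31 ± 0.13 SE, adjusted p = 1.74e-05), and read -1.62 ± 0.11 at day 7 (SD, n = 4), 1.88-fold above day 3 (adjusted p = 0.00109). Its unscaled signal was 0.897 times sham at day 3. Cyp11b3 fell by 1.0 ± 0.18 at day 3 (adjusted p = 0.000564), but not in the unscaled signal (1.11 times sham), and its other probe was at -0.74 (adjusted p = 0.153). Cyp17a1 and Cyp11a1 were not called. Of 5 tested adrenal markers 4 were lower at day 3, against 33.1% of all genes. The list lay between -1.91 and -1.05 in sham and between -2.88 and -2.72 at day 3, and Chga and Dbh were above background on no array. The part of adrenal tissue in these values was not tested. Cyp20a1, an orphan without a known substrate, rose from -2.12 ± 0.27 to -0.81 ± 0.10 at day 3 (SD, n = 4 each; 1.31 ± 0.20 SE, adjusted p = 0.000194) and was at -2.04 ± 0.38 (SD, n = 4) at day 7. Its difference with normexp was 0.23 at day 3 (adjusted p = 0.567) and -0.58 between the days (adjusted p = 0.436), neither called.

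Genes that serve P450 enzymes were read from lists. Of 11 tested redox partners 5 fell and 1 rose at day 3, against 33.1% and 24.2% of all genes. At day 7, 5 were lower, against 10.6%. Por, the reductase that feeds electrons to microsomal P450 enzymes, fell by 2.14 ± 0.16 at day 3 (adjusted p = 4.77e-06) and stood at -2.03 ± 0.16 at day 7 (adjusted p = 8.48e-05), with 0.11 ± 0.16 between the days (adjusted p = 0.624). Cyb5a, cytochrome b5, was at -1.18 ± 0.18 and -1.05 ± 0.18 (adjusted p = 0.000215 and 0.00329). The mitochondrial donors Fdx1 and Fdxr were not called at day 3. Cyb5r4 rose by 0.93 ± 0.13 at day 3 (adjusted p = 0.00011), and Cyb5r1 fell by 1.12 ± 0.17 (adjusted p = 0.000194).

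Heme supply and breakdown had 13 tested genes, of which 5 fell and 1 rose at day 3, against 33.1% and 24.2% of all genes. At day 7, 3 were lower, against 10.6%. Alas1, the first enzyme of heme synthesis in most tissues, was at -0.23 ± 0.15 at day 3 (adjusted p = 0.195) and rose by 0.62 ± 0.15 between the days (adjusted p = 0.00966). Alad, the next enzyme, fell by 1.76 ± 0.20 at day 3 (adjusted p = 3.32e-05). Hmox1, which degrades heme, rose by 1.35 ± 0.18 (adjusted p = 7.85e-05) and was at 0.18 ± 0.18 at day 7 (adjusted p = 0.51). Alas2 (-1.84 ± 0.44) and Ppox (-1.40 ± 0.25) also fell at day 3 (adjusted p = 0.00376 and 0.000637).

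Among 23 tested receptors and factors known to drive P450 genes, 12 fell and 4 rose at day 3, against 33.1% and 24.2% of all genes. At day 7, 4 were lower and 2 higher, against 10.6% and 8.21%, and 10 rose between the days, against 18%. Ppara, the receptor of Cyp4a genes, fell by 3.33 ± 0.26 at day 3 (adjusted p = 5.11e-06) and stood at -1.96 ± 0.26 at day 7 (adjusted p = 0.000885). Hnf4a fell by 2.24 ± 0.28 (adjusted p = 6.09e-05), Nr1h4, the bile acid receptor, by 2.18 ± 0.26 (adjusted p = 4.98e-05) and Nr1i2, the xenobiotic receptor PXR that drives Cyp3a genes, by 1.81 ± 0.24 (adjusted p = 7.81e-05). Nr1i3, the receptor CAR, was not called at day 3 (0.45 ± 0.30, adjusted p = 0.208). Nr0b2, a corepressor, fell by 3.17 ± 0.38 (adjusted p = 4.81e-05) and was at 0.25 ± 0.38 at day 7 (adjusted p = 0.694).

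**Figure D5:**
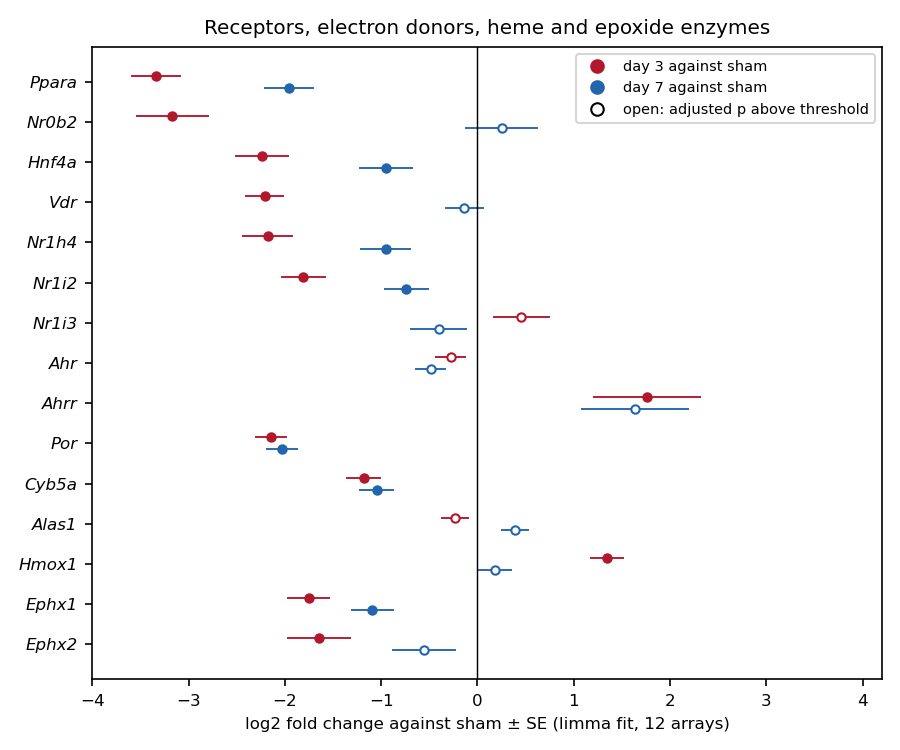
Log2 fold change against sham with its SE at day 3 (red) and day 7 (blue) for receptors, electron donors, heme enzymes and epoxide hydrolases named in the text (limma fit over 12 arrays; filled points passed the adjusted p threshold). Ppara, Hnf4a, Por, Cyb5a and Ephx1 are below sham at both days, Vdr and Ephx2 are called at day 3 alone, and Hmox1 and Ahrr are above sham at day 3.

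The mean of 14 proximal tubule markers lay between 4.32 and 4.62 in sham, between 0.92 and 2.87 at day 3 and between 2.91 and 3.72 at day 7. All 14 had a probe above background on every sham array. Of them, 12 fell at day 3 and 6 were lower at day 7, against 33.1% and 10.6% of all genes. Slc22a6 (-4.79 ± 0.50) and Slc34a1 (-3.83 ± 0.52), transporters of that segment, fell at day 3 (adjusted p = 2.11e-05 and 9.88e-05). Within day 3, replicate 3 had the highest proximal tubule mean (2.87) and the highest value in 17 of the 26 members that fell. Replicate 4 had the lowest mean (0.92) and the lowest value in 18 of the 26. Replicate 3 was also highest for the thick ascending limb (0.13), distal tubule and collecting duct (-0.58), macrophage (0.84) and fibroblast (2.71) lists. In those lists replicate 2 was the lowest. How many of all genes share such an order was not counted. Markers of other cells fell at day 3 as well: 4 of 5 tested for the thick ascending limb (list median -2.09), 8 of 9 for the distal tubule and collecting duct (-2.22) and 5 of 8 for endothelium (-1.11). The remaining 1 of the thick ascending limb was called higher. At day 7, 0 thick ascending limb markers were lower and 1 was higher, and 1 distal marker was lower and 1 higher. For endothelium 4 were lower and 0 higher, against 10.6% and 8.21% of all genes. The part of these cell types in the P450 losses was not tested. Markers of fibroblasts and pericytes had mean levels of 0.67 to 1.17 on the sham arrays, 2.17 to 2.71 on those of day 3 and 1.85 to 2.10 on those of day 7, and 7 of 7 tested rose at day 3. Those of macrophages were -0.96 to -0.11, 0.37 to 0.84 and 0.06 to 0.63, with 4 of 8 higher and 1 lower at day 3, against 24.2% and 33.1% of all genes. These lists moved beside the members that rose, and their part in those results was not tested. Of the 10 genes of the hepatocyte list, 4 were tested and none was called in any comparison. Above background on all arrays of a group were 2 in sham, 4 at day 3 and 3 at day 7, while Alb, Ttr and Tat were above it on no array.

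All 32 members called at day 3, all 14 at day 7 and all 15 between the days kept their direction within each of the 3 slides, which each held all 3 groups. Where the arrays of 2 groups do not overlap, the direction within a slide is fixed beforehand. This held for all 14 members called at day 7 and for most called in the other comparisons, so the count is no separate check on slides. Of the 36 members not tested, 14 were above background on no array, among them Cyp11b1, Cyp11b2, Cyp1a2, Cyp2c12, Cyp3a2, Cyp3a18, Cyp4f4, Cyp4x1 and Cyp7a1. Cyp26b1 (above background on 1, 3 and 2 arrays of the groups), Cyp2d3 (3, 3 and 3) and Cyp2g1 (1, 0 and 3) were among those measured on some arrays.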

How the data were processed

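RNA extraction used an RNeasy kit and Cy3 was the only dye, per the labels, which name a DNA labelling kit and no step for RNA. Per the file headers, Agilent Feature Extraction 9.5.1.1 read the arrays, and the deposited processed signal is a background-subtracted intensity with no scaling between arrays. The mean spot and local background intensities, also per the file headers, are uncorrected. Background, saturation and outlier flags are 0 or 1, per the file headers. The authors' deposited value table holds log2 values centred on the median of each probe, as a comparison with the scanner values showed (lowest correlation over 30367 probes 0.998). That correlation was taken within each array, so it does not show how the arrays were scaled. With the value table the median of all tested genes was -0.03 at day 3 and 0.01 at day 7, against -0.13 and -0.07 here. The table carries no level, its column medians ran from -0.209 to 0.3, and it served as an alternative.

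Here log2 processed signals were taken minus the 75th percentile of the array, so a change is relative to that percentile. Outlier spots were set aside, spots of a probe averaged, probes kept that were well above background on all 4 arrays of a group, and the brightest probe took the place of its gene. No member was saturated. limma 3.58.1 in R 4.3.3 fitted 1 mean per group over all genes, two-sided, with Benjamini-Hochberg adjustment. On simulated data of the comparison of day 3 with sham, with 200 of 18428 genes changed, it recovered 50% of log2 changes of 1 and 93% of 2, with 13 false calls. The simulation used normal noise and a far smaller share of changed genes than the 57.3% called at day 3. These rates therefore show that the fit runs as intended and are not those of the real comparison.

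Probe positions are those of the files on rn4; no genome or gene model of that build was used, so exon, intron and UTR are not given. Promoters, for 59 of the 76 members, came from RefSeq on GRCr8. Named with all array values were all tested members of the vitamin D, family 4, epoxygenase, family 1 and retinoic acid groups and the 8 largest changes of the rest at each day, and of each partner list the 4 largest day 3 changes and Por, Alas1, Ephx2, Nr1i3, Nr1i2, Ahr, Hnf4a, Ppara and Vdr; other members are given by mean, difference or count. Ahrr, Nr1h4, Hpgd, Fdx1, Fdxr, Slc22a6 and Slc34a1 were added after their values were seen. The members and lists were chosen with earlier results of these data known. The number of arrays limits the precision. Each group had 4 rats per the series' design text. Over 12 pairs of arrays with the same replicate number, correlations of deviations ran from -0.33 to 0.142. Pairs with different numbers were not compared, so these values do not settle whether the numbers pair the rats.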

Additional observations from a re-analysis of the deposited data

Results flagged for a closer look

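In 119 groups of 4 arrays of the tested members, 6 had 1 array farther from the others than Dixon's test allows, and about 1 in 20 would by chance. Cyp20a1 read -1.47 on day 7 replicate 3, above the other 3 (-2.31 to -2.20). Cyp2c79 read -4.63 on day 7 replicate 3, below the others (-3.22 to -3.13). Cyp2f4 read -0.18 on day 7 replicate 4, above the others (-2.21 to -2.02). Cyp2t1 read -0.22 on day 3 replicate 3, above the others (-1.06 to -0.93). Cyp4a1 read 1.67 on day 7 replicate 3, below the others (2.26 to 2.36). Cyp4f40 read -0.30 on day 3 replicate 4, below the others (0.38 to 0.40). Of 9 probes described as P450 but named otherwise, 2 were tested, and 1 of them, LOC687842, described as similar to P450 2C24 (chr1:243421089-243421148), stood above background on all day 3 arrays and no sham array, with a difference of 0.48 ± 0.39 (limma adjusted p = 0.315).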

How the results depend on the processing

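Normexp background correction gave 3055, 85 and 155 genes called for day 3 against sham, day 7 against sham and day 7 against day 3, and among P450 genes 8 lower and 0 higher, 0 and 0, and 0 and 0 (limma; at an unadjusted p under 0.05, 24 and 1, 3 and 0, and 1 and 6). It turned Cyp7b1 to -0.22 at day 3 and -0.21 at day 7. Without spots below their local background it gave 0 higher members at day 7 against sham (0 unadjusted) and 19 between the days, and turned Cyp11a1 to -0.51 at day 3 and Cyp39a1 to 0.45 between the days. These causes were not tested. With no filter 40 members were lower at day 3, more genes being tested; with probes above background on all 12 arrays, fewer being tested, 3 were higher at day 3 and 2 lower between the days. Members higher at day 7 were 3 with total signal and the authors' value table, and 2 with slide or scan batch as a block. Among called genes, higher ones made up 42.2% at day 3 and 43.6% at day 7, against 58.6% and 78.0% with total signal and 55.3% at day 7 with the value table.

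Without each array in turn, genes called were 9296 to 10648, 2042 to 3476 and 3475 to 6665 in the 3 comparisons, P450 genes lower 24 to 27, 8 to 15 and 3 to 4, and higher 6 to 6, 1 to 3 and 6 to 13. The lowest counts were without day 7 replicate 3 (2042; 2224 without day 7 replicate 1) and, between the days, without day 3 replicates 2 (3703) and 4 (3475) and day 7 replicate 4 (3860). The unscaled percentile was 1.97 to 2.33 times sham at day 3 and 1.38 to 1.64 at day 7, where 3 arrays against 4 gave an exact permutation p of 0.0571 without sham replicate 1, 2 or 3 (1.56, 1.56 and 1.38).

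Whether the replicate numbers pair the rats was not settled. With the replicate block the counts were 10133, 2464 and 4692 genes, 25, 11 and 4 P450 genes lower and 6, 1 and 8 higher. Signal over background sets the limit here: Cyp1b1, Cyp3a9 and Cyp39a1 have only lower bounds against groups below background, differences of Cyp4a2, Cyp2d2 and Cyp7b1 rest in part on arrays not well above it, and probes above background on no array moved by a median of -0.78 at day 3 and 0.82 between the days.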
